A study of Mus musculus with 17 samples.

Results

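The 10 genes described here encode the machinery that presents peptides on MHC class I and class II molecules: H2-Aa, H2-Ab1, H2-Eb1, Cd74, H2-DMa, H2-DMb1, Ciita, H2-K1, H2-D1 and B2m. They were chosen by gene symbol and not by a rule on their levels, but with earlier results of these data known. All 10 were found among the 19151 genes of the table for mice on a high-fat diet (HFD) and the 24233 genes of the table for mice on a Western diet (WD). RNA-seq was run on 17 mouse libraries in 5 groups. On HFD there were 4 wild-type (WT) livers and 4 livers of liver-specific NgBR knockout mice (N-LKO), and on WD there were 3 WT livers, 3 N-LKO livers and 3 tumors of N-LKO mice. The mice were males on a C57BL6 background, their age is not in the labels, and they had been on their diet for 16 weeks, and no group on a chow diet was analysed here. NgBR is the product of Nus1, a subunit of the cis-prenyltransferase that makes dolichol, the lipid carrier of protein glycosylation. The knockout used Cre recombinase under the albumin promoter and a floxed NgBR gene, so it is directed at hepatocytes and not at the immune cells of the liver. The labels do not tell whether a tumor and a liver library came from the same mouse, and every library was treated as independent.

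MHC class II molecules are pairs of an alpha and a beta chain on the surface of dendritic cells, macrophages and B cells, where they show peptides from ingested proteins to CD4+ T cells. H2-Aa and H2-Ab1 encode the alpha and beta chain of I-A, and H2-Eb1 the beta chain of I-E, whose alpha chain C57BL6 mice do not make. Cd74 is the invariant chain that guides new class II molecules to the endosome and blocks their groove, and H2-DMa and H2-DMb1 form the H2-M dimer that swaps the blocking fragment for a peptide. Ciita is the transactivator that switches on class II genes. MHC class I molecules (heavy chains H2-K1 and H2-D1, light chain B2m) are made by nearly all nucleated cells, hepatocytes included, and show peptides from inside the cell to CD8+ T cells.

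The tables' coordinates match GRCm38, in which 7 of the 10 genes lie within the MHC region of chromosome 17. H2-K1 lies at chr17:33996017-34000347, H2-DMa at chr17:34119541-34139101, H2-DMb1 at chr17:34153072-34160230, H2-Ab1 at chr17:34257689-34269419, H2-Aa at chr17:34282744-34287823, H2-Eb1 at chr17:34305867-34316674 and H2-D1 at chr17:35262730-35267499. B2m lies at chr2:122147686-122153083, Ciita at chr16:10480059-10528418 and Cd74 at chr18:60803848-60812652, and each range spans the whole protein-coding gene.

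Class II promoters carry an X box and a Y box, which bind the RFX, CREB and NF-Y proteins with which Ciita works, and interferon response elements sit in class I promoters. RefSeq promoter windows (GRCm38.p6, 250 bases before to 50 after the start) were at hand for 7 of the 10 genes, all but H2-Ab1, Cd74 and Ciita. Both strands were searched for ATTGG, the letters of the Y box, which 37.4% of 32851 windows hold, for ACNGATG, letters of the X box (9.9% of windows), for GAAANNGAA, letters of an interferon response element (8.6%), and for TTCNNNGAA, letters of a gamma-activated site (8.3%). The 150 bases before the start are shown for 2 class II chains and 2 class I genes, to let the windows of both branches be compared. Capitals mark matches to the first 3 motifs on either strand (CCAAT is ATTGG on the other strand).

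H2-Eb1: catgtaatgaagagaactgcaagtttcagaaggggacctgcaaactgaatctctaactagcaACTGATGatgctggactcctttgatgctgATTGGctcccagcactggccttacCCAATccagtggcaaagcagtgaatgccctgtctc
H2-Aa: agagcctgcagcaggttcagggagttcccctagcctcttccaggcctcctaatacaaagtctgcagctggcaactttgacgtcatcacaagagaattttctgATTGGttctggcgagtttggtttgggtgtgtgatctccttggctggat
B2m: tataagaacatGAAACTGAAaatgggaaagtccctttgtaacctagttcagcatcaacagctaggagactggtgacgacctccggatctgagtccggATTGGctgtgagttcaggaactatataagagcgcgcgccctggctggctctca
H2-K1: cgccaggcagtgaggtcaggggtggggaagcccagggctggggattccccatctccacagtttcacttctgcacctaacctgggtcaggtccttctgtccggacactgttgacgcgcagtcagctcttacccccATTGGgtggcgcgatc

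The H2-Eb1 stretch is chr17:34305717-34305866 on the plus strand, the H2-Aa stretch chr17:34287824-34287973 on the minus strand, the B2m stretch chr2:122147537-122147686 on the plus strand and the H2-K1 stretch chr17:34000348-34000497 on the minus strand. In H2-Eb1, ACNGATG began 88 bases before the start and ATTGG followed 29 bases later. The same pair of motifs stood 30 bases apart in the windows of H2-DMb1 and H2-D1. A distance of 28 to 31 bases, a range chosen after these windows were seen, occurred in 17 windows (0.052%). H2-Aa held ATTGG 48 bases before its start, and B2m held ATTGG 53 bases and GAAANNGAA 139 bases before its start. TTCNNNGAA was in none of the members' windows. A match is a run of letters and not a measured binding site. A window without a match, such as that of H2-K1 for GAAANNGAA, can still hold a like element in other letters.

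The libraries held 9096110 to 12215784 counts on HFD and 15494731 to 20200618 on WD. Levels are given as CPM, a count relative to the scaled total of its library, and because each diet has its own table, diet and table cannot be told apart and levels are compared within a diet. Nus1 was at 82.5 to 96.2 CPM in the WT livers and 29.4 to 38.0 CPM in the N-LKO livers on HFD, and at 88.2 to 98.9, 41.7 to 51.1 and 29 to 44 CPM in WT livers, N-LKO livers and tumors on WD, with no overlap of WT with either knockout group. The adjusted p of Nus1 was 0.000194 on HFD and 0.151 for N-LKO against WT livers on WD, so on WD this comparison did not call even the deleted gene. The summed level of 6 hepatocyte markers was 32037 CPM or more in every library, in the tumors 34404 to 60239 CPM. WD livers and tumors had 2 libraries that stood apart in class II genes, WT liver 2 (lowest of the WT livers) and tumor 2 (highest of the tumors), and results that rest on them are given with and without them.

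The class I genes stood far above the class II chains. Per kilobase of exon, the WT livers on HFD had a mean of 1760 CPM per kb for B2m (SD 70.8, n = 4), 247 for H2-K1 (SD 14.6) and 141 for H2-D1 (SD 8.04). Cd74 followed at 20 CPM per kb (SD 6.72), ahead of H2-Eb1 at 5.54 (SD 1.77), H2-Ab1 at 3.65 (SD 1.16) and H2-Aa at 3.42 (SD 0.794). H2-DMb1 at 0.968 (SD 0.324), H2-DMa at 0.553 (SD 0.168) and Ciita at 0.0860 CPM per kb (SD 0.0317) closed the order. Within each of these livers H2-Eb1 was above H2-Ab1 per kilobase of exon, and H2-DMb1 above H2-DMa. Exon length here joins all annotated exons of a gene. The longest transcript was shorter, at 1212 against 2568 bases for H2-Ab1 and 1669 against 1944 for H2-Eb1. The order of genes at like levels, these pairs included, therefore depends on the length used. H2-Ab1 and H2-Aa did not keep the same order in all of them. The transactivator was thus the scarcest transcript of the set, with 4 to 17 counts per library on HFD. Cd74 was below H2-D1 in the mean of every liver group. In the tumors its mean of 283 CPM per kb (SD 201, n = 3) was above H2-K1 at 250.4 (SD 69.4) and H2-D1 at 216 (SD 43.98), within the spread of the tumors. That order rests on tumor 2, at 865 CPM of Cd74 against 260.2 and 301 CPM in tumors 1 and 3. Between Cd74 and H2-K1 it also depends on the length used. The longest transcript was 1874 against 2938 exon bases for H2-K1 and 1410 against 1679 for Cd74. In tumors 1 and 3 Cd74 was below both heavy chains per kilobase.

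In HFD livers, the question was whether hepatic loss of NgBR goes with a different level of the presentation genes. The fitted difference was above 0 for all 10, but none passed the threshold of 0.05 on the adjusted p, and for none did every N-LKO library lie above every WT library. Over all genes tested, 4.84% were called and 7.39% had every N-LKO library above every WT library. The median log2 fold change of the 10 genes was 0.52 and that of all genes -0.01.

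H2-Aa was at 17.4, 12.0, 11.9 and 10.6 CPM in the 4 WT livers and at 15.4, 17.1, 22.4 and 25.2 CPM in the 4 N-LKO livers. WT liver 1 lay above the 2 lowest N-LKO livers, and the other WT livers lay below all of them. The fitted log2 fold change was 0.62 (SE 0.19, 95% interval 0.26 to 0.99, adjusted p = 0.0759). H2-Ab1 was at 13.3, 8.51, 9.45 and 6.21 CPM in the WT livers and 12.7, 10.3, 19.3 and 18.1 CPM in the N-LKO livers. H2-Eb1 was at 15.0, 11.1, 10.3 and 6.62 CPM in the WT livers and 14.2, 13.3, 19.5 and 18.7 CPM in the N-LKO livers. For both beta chains, WT liver 1 was again the only WT library within the range of the N-LKO livers, and N-LKO livers 3 and 4 were the highest. Their log2 fold changes were 0.68 (SE 0.24, adjusted p = 0.119) and 0.61 (SE 0.21, adjusted p = 0.118).

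The invariant chain Cd74 was at 47.0, 30.6, 36.8 and 20.1 CPM in the WT livers and at 40.1, 40.1, 60.5 and 54.1 CPM in the N-LKO livers, with the same WT library reaching into the N-LKO range (log2 fold change 0.53, SE 0.22, adjusted p = 0.174). H2-DMa and H2-DMb1 lay between 1.12 and 3.59 CPM with overlapping groups (log2 fold changes 0.25 and 0.52, adjusted p = 0.683 and 0.360). Ciita lay between 0.407 and 1.05 CPM in the WT group and between 0.746 and 1.40 CPM in the N-LKO group (log2 fold change 0.51, adjusted p = 0.424). H2-Aa, H2-Ab1, H2-Eb1 and Cd74 had an unadjusted p under 0.05, 4 of the 10 genes beside 22.7% of all genes tested. With DESeq2 H2-Aa alone was called (adjusted p = 0.0331). Of the 8 edgeR fits without 1 library, H2-Aa (adjusted p = 0.0317) and H2-Eb1 (adjusted p = 0.0467) each passed in 1, that without WT liver 1. In the other fits their adjusted p reached 0.178 and 0.237. WT liver 1 is the WT library that reached into the N-LKO range, so leaving it out favours a call. Of all genes, 597 were called in that fit and 652 with all libraries.

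In bulk tissue, more cells of a type and more RNA per cell cannot be told apart, so markers of the cells that carry class II are set beside these values. The summed level of H2-Aa, H2-Ab1, H2-Eb1 and Cd74 was 92.7, 62.2, 68.5 and 43.5 CPM in the WT livers and 82.4, 80.8, 121.7 and 116.1 CPM in the N-LKO livers on HFD. Of 6 leukocyte markers none was called (median log2 fold change -0.09), and their summed level was 29.5 to 43.9 CPM in the WT livers and 24.7 to 43.4 CPM in the N-LKO livers. The first sum divided by the second, class II per leukocyte marker, was 2.23, 1.42, 1.76 and 1.47 in the WT livers and 2.83, 3.27, 2.80 and 2.84 in N-LKO livers, a ratio computed after the values were seen, in which the groups did not overlap. They did overlap in the 3 other ratios computed. Per dendritic cell marker, class II was 5.41 to 9.94 in the WT and 9.51 to 13 in the N-LKO group, and per B cell marker 15.4 to 25.1 and 14.8 to 34.5. Per recruited macrophage marker it was 5.21 to 12.9 and 6.3 to 8.74, with a lower mean in the N-LKO group (7.87 against 9.63).

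Of 6 Kupffer cell markers, 5 fell on HFD, among them Timd4 (log2 fold change -2.19, adjusted p = 0.00749) and Folr2 (-1.33, adjusted p = 0.0222), and the summed level was 106 to 162.2 CPM in the WT livers and 50.4 to 104.6 CPM in the N-LKO livers. In the fits without 1 library, Timd4 passed in all 8, Folr2 in 4, Clec4f and Marco in 2 each and Vsig4 in 1. With the offset for length and GC content, 2 of the 6 Kupffer and sinusoidal endothelial markers called on HFD passed. With the replicate number as a block, 3 of these 6 passed. Kupffer cells, the resident macrophages of the liver, can themselves carry class II. Recruited macrophage markers summed to 3.36 to 12.3 CPM in the WT livers and 9.48 to 15.3 CPM in the N-LKO livers (0 of 4 tested called). Dendritic cell markers summed to 6.89 to 10.3 against 8.28 to 10.48 CPM (0 of 3 tested called), with Flt3 at 0 counts in 2 and Cd209a in 1 of the 8 libraries. B cell markers summed to 1.73 to 5.42 against 3.36 to 5.44 CPM, and neither they nor the T cell markers had a gene that could be tested. Markers of stellate cells, the collagen-making cells of the liver, summed to 110.02, 79.2, 59.5 and 52.6 CPM in the WT group and 81.5, 76.9, 113.9 and 113 CPM in the N-LKO group, highest in N-LKO livers 3 and 4 and WT liver 1 and lowest in WT liver 4, as class II was. None of these 6 was called, and 4 had a fitted difference above 0 while the others were below 0. Of the 6, 5 (83.3%) had an unadjusted p under 0.05, beside 22.7% of all genes. Their median log2 fold change was 0.87. Sinusoidal endothelial markers summed to 107 to 132 against 83.2 to 125 CPM, and 1 of 6, Stab2, fell. The part of any of these cells in the class II values was not tested.

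**Figure D1:**
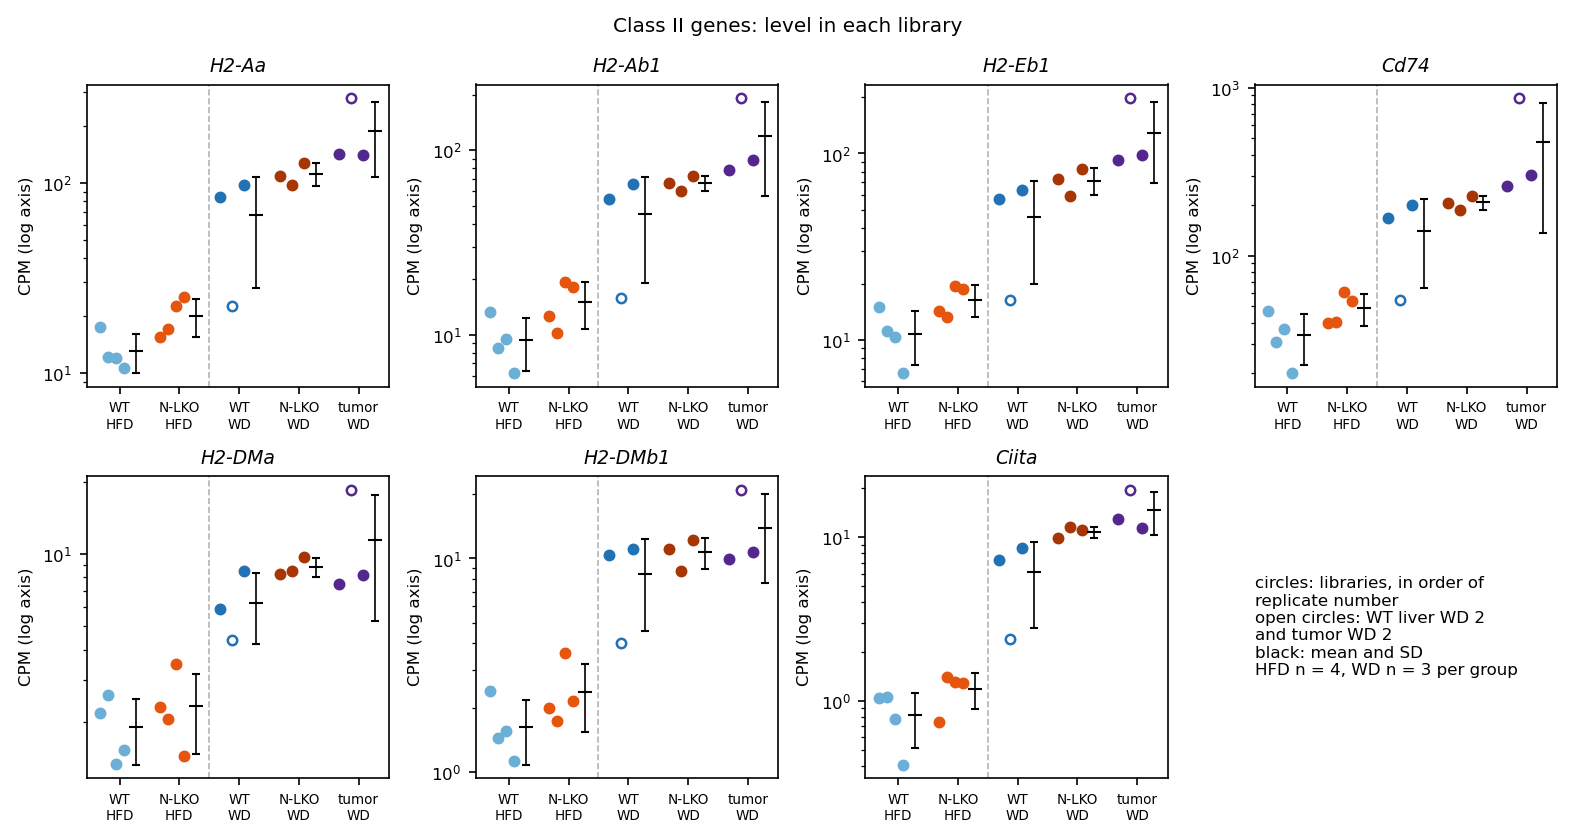
Level of the 7 class II genes in CPM (vertical log axis) in each library, by group, with black bars for mean and SD (n = 4 per group on HFD, n = 3 on WD). Open circles are WT liver 2 and tumor 2 on WD, the lowest WT library for H2-Aa at 22.4 CPM and the highest tumor at 279 CPM.

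On WD, the comparison of N-LKO with WT livers called none of the 10 genes, none had an unadjusted p under 0.05, and DESeq2 called none of them either. Of all genes, 0% were called by edgeR (2212 had an unadjusted p under 0.05 and DESeq2 called 100), while every N-LKO library lay above every WT library for 14.3% of genes and below for 13.6%. The fitted difference was above 0 for all 7 class II genes and below 0 for the 3 class I genes, with medians of 0.56 and -0.15 against 0.01 over all genes.

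H2-Aa was at 84.0, 22.4 and 96.9 CPM in the WT livers and at 109, 97.6 and 127.6 CPM in the N-LKO livers, where the lowest N-LKO library was just above the highest WT library (log2 fold change 0.72, SE 0.46, 95% interval -0.18 to 1.61, adjusted p = 0.516). Ciita likewise did not overlap, at 7.28, 2.37 and 8.65 CPM in the WT livers and 9.84, 11.5 and 11 CPM in the N-LKO livers (log2 fold change 0.82, SE 0.38, adjusted p = 0.417). These were the 2 members with every N-LKO library higher. H2-Ab1 was at 54.5, 15.9 and 65.8 against 66.1, 59.9 and 72.5 CPM, and H2-Eb1 at 56.6, 16.3 and 63.7 against 73.2, 58.9 and 82.4 CPM (adjusted p = 0.624 and 0.544). Cd74 was at 167, 54.7 and 199.7 CPM in the WT livers and 207, 188 and 227 CPM in the N-LKO livers (log2 fold change 0.56, adjusted p = 0.643).

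These values rest on WT liver 2, which was the lowest WT library for all 7 class II genes. Without it, the log2 fold change was 0.30 for H2-Aa, 0.13 for H2-Ab1, 0.25 for H2-Eb1, 0.18 for Cd74 and 0.43 for Ciita. That of H2-DMb1, 0.33 with all libraries, was then -0.0049. H2-DMa was at 5.90, 4.41 and 8.47 CPM in the WT livers and 8.27, 8.5 and 9.73 CPM in the N-LKO livers (log2 fold change 0.49, adjusted p = 0.560). The same library was also lowest for the summed markers of leukocytes (156, 84.9 and 157 CPM in the WT group against 172, 177 and 177 CPM in the N-LKO group), of dendritic cells (28.9, 19.5 and 32.4 against 37.5, 41.8 and 40.5 CPM) and of recruited macrophages (76.3, 20.7 and 103 against 115, 110 and 120 CPM). Kupffer cell markers went the other way without overlap (575, 400 and 580 against 378, 336 and 398 CPM), as did hepatocyte markers (44870 to 54718 against 32037 to 39821 CPM). Cholangiocyte markers were higher without overlap, at 7.66 to 9.42 against 14.6 to 18.9 CPM. No marker of the 10 cell type lists was called in this comparison, and the part of these cells in the class II values was not tested. Class II per leukocyte marker was 2.31, 1.29 and 2.71 in the WT livers and 2.65, 2.28 and 2.88 in N-LKO livers, so on WD the groups overlapped in that ratio.

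Tumors were compared with both WD liver groups, which asks whether the lesion differs from liver tissue of knockout mice or from liver that keeps NgBR. Both comparisons use the same tumor libraries. Against N-LKO livers, none of the 10 genes was called (0.499% of all genes were), although H2-Aa, H2-Ab1, H2-Eb1 and Cd74 were higher in every tumor than in every N-LKO liver, which held for 11.5% of all genes. Cd74 alone had an unadjusted p under 0.05, as had 18.3% of all genes, and DESeq2 called no member. Against WT livers, Cd74 rose and was the 1 member called, where 14.9% of all genes were called. In this comparison the 3 class II chains, Cd74 and Ciita were higher in every tumor than in every WT liver, against 17.7% of all genes.

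Cd74 was at 260.2, 865 and 301 CPM in the tumors, against 54.7 to 199.7 CPM in the WT livers and 188 to 227 CPM in the N-LKO livers. Tumor 2 stood far above the rest, and tumors 1 and 3 lay just above the livers. The log2 fold change was 1.76 against WT livers (SE 0.52, 95% interval 0.74 to 2.78, adjusted p = 0.0479) and 1.2 against N-LKO livers (SE 0.51, adjusted p = 0.252). Without tumor 2 it was 0.97 against WT livers and 0.43 against N-LKO livers, and of the 9 fits without 1 library, 2 called Cd74 against WT livers.

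The class II chains were near the threshold against WT livers. H2-Aa was at 141, 279 and 140.4 CPM in the tumors (log2 fold change 1.46, SE 0.46, adjusted p = 0.0587), H2-Ab1 at 78.4, 191 and 88.1 CPM (1.39, adjusted p = 0.0721) and H2-Eb1 at 92.0, 198 and 97.8 CPM (1.5, adjusted p = 0.0508). Tumor 2 was highest for each. Against N-LKO livers the log2 fold changes were 0.75, 0.85 and 0.85 with adjusted p = 0.412, 0.360 and 0.342. Ciita was at 13.0, 19.5 and 11.3 CPM in the tumors, with log2 fold changes of 1.26 against WT (adjusted p = 0.0518) and 0.44 against N-LKO livers (adjusted p = 0.563). H2-DMa was at 7.54, 18.5 and 8.19 CPM and H2-DMb1 at 9.90, 21.0 and 10.7 CPM, so that tumors 1 and 3 lay within the range of the livers for both chains of the exchange dimer.

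With both WT liver 2 and tumor 2 left out, a choice made after the values were seen, no member was called against WT livers. The log2 fold changes were then 0.64 for H2-Aa, 0.47 for H2-Ab1, 0.66 for H2-Eb1, 0.61 for Cd74 (adjusted p = 0.0861) and 0.61 for Ciita, each smaller than with all libraries.

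**Figure D2:**
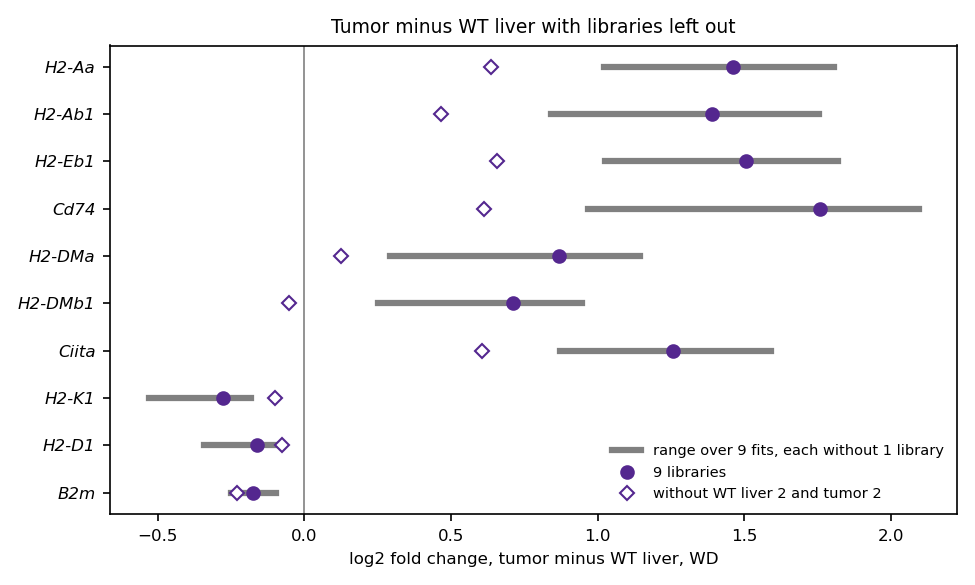
Log2 fold change of tumors against WT livers on WD (horizontal axis) for the 10 genes, from all 9 libraries (filled circles), over the 9 fits without 1 library (grey bars) and without both WT liver 2 and tumor 2 (open diamonds). The diamonds of the class II genes lie left of the circles, for Cd74 at 0.61 against 1.76.

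The ratio of Cd74 to its client chains set tumor 2 apart on WD. Cd74 was 1.78 to 2.45 times H2-Aa in 8 of the 9 WD libraries and 3.10 times in tumor 2, and 1.89 to 3.09 times on HFD. Per 100 CPM of H2-Aa, Ciita was at 3.85 to 8.73 CPM on HFD and 7.0 to 11.8 CPM on WD.

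Beside these values, leukocyte markers summed to 225, 245 and 144 CPM in the tumors, and of 6 tested against WT livers 1 rose, the pan-leukocyte phosphatase Ptprc (log2 fold change 1.02, adjusted p = 0.0445). Ptprc passed in 1 of the 9 fits without 1 library, and without WT liver 2 and tumor 2 it was at 0.58 (adjusted p = 0.235). Dendritic cell markers summed to 46.8, 49.1 and 46.6 CPM, above all livers, and Itgax, Cd209a and Siglech rose against WT livers (3 of 8). T cell markers summed to 8.5, 11.3 and 7.51 CPM in the tumors, 4.89 to 5.51 CPM in N-LKO livers and 3.05 to 3.46 CPM in WT livers, and Cd3g and the class II co-receptor Cd4 rose (2 of 5). Recruited macrophage markers summed to 189, 103.6 and 106 CPM with 1 of 6 called (Cx3cr1), and B cell markers to 8.45, 12.7 and 7.77 CPM with 0 of 5 called.

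Kupffer cell markers were lower in the tumors, at 318, 119 and 98.2 CPM against 400 to 580 CPM in WT livers, and 4 of 6 fell. Cholangiocyte markers summed to 29.9, 64.9 and 34.7 CPM in the tumors against 7.66 to 9.42 CPM in WT livers (2 of 6 rose), and of 6 hepatocyte markers 2 fell. The cholangiocyte list did not rise as a whole. A fitted difference above 0 was found for 4 of 6 against WT livers and 2 of 6 against N-LKO livers (median log2 fold changes 0.49 and -0.84). Of the 18 markers called for tumors against WT livers, 2 still passed without WT liver 2 and tumor 2, Itgax and the cholangiocyte marker Sox9, and 1 of 17 in the fit of those groups alone. Of the sinusoidal endothelial markers 1 rose and 1 fell and of the stellate cell markers 1 fell, of 6 each. Tumor 2, the highest library for class II, was also the highest tumor for leukocyte, dendritic cell, B cell, T cell and cholangiocyte markers, but not for recruited macrophage markers. Class II per leukocyte marker was 2.54, 6.25 and 4.36 in the tumors. The part of any cell type in these results was not tested.

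**Figure D3:**
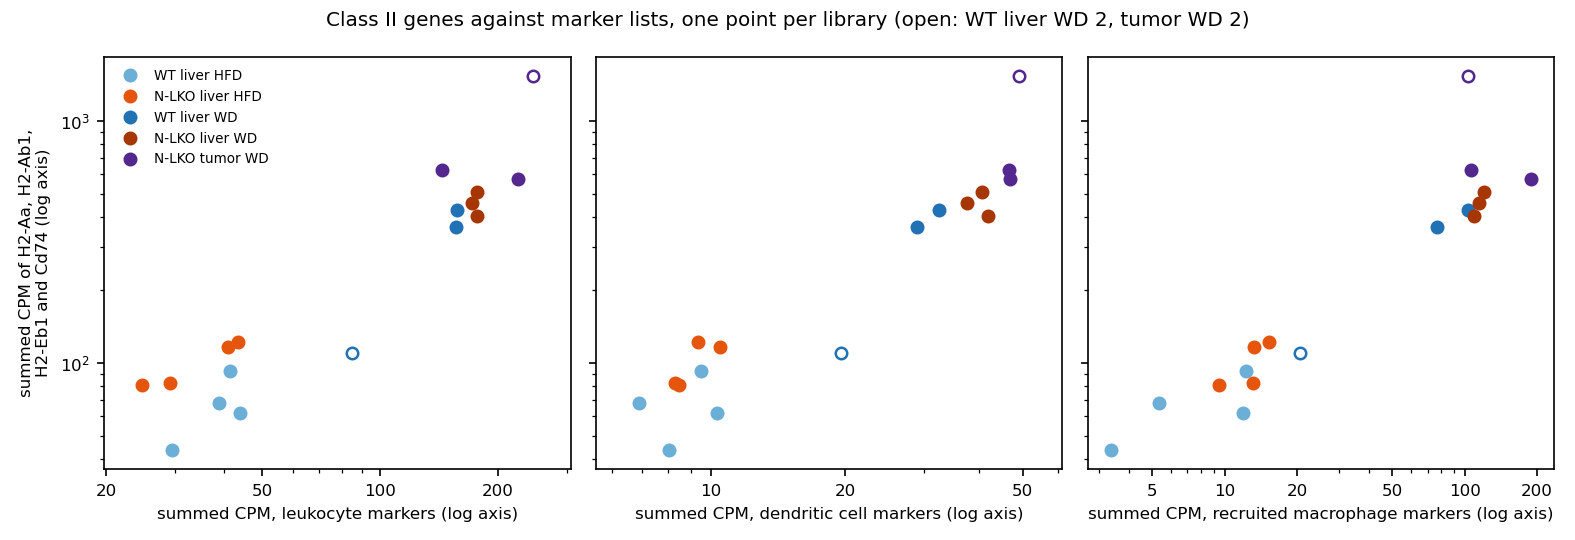
Summed CPM of H2-Aa, H2-Ab1, H2-Eb1 and Cd74 (vertical log axis) against the summed CPM of leukocyte, dendritic cell and recruited macrophage markers (horizontal log axes), 1 point per library, coloured by group. In the leukocyte panel the N-LKO livers on HFD lie above WT livers of like level, while in the dendritic cell and recruited macrophage panels the class II ratios of the groups overlap, and tumor 2 (open purple) lies at 1532 CPM, above the other tumors at 572 and 627 CPM.

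None of the 3 class I genes was called in any comparison. H2-K1 was at 736, 711, 776 and 674 CPM in the WT livers and 805, 717, 843 and 877 CPM in the N-LKO livers on HFD (log2 fold change 0.16, SE 0.09, adjusted p = 0.321). On WD it was at 839, 957 and 879.7 CPM in the WT livers and 735, 722 and 696 CPM in the N-LKO livers, with every N-LKO library lower (log2 fold change -0.31, SE 0.20, adjusted p = 0.511). H2-D1 showed the same order, at 630.1, 613 and 622 CPM in the WT livers and 579, 546 and 553 CPM in the N-LKO livers on WD (log2 fold change -0.15, adjusted p = 0.701), and 336 to 384 against 329.9 to 453 CPM on HFD (0.16, adjusted p = 0.414). H2-K1 and H2-D1 were the 2 members with every N-LKO library lower on WD.

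In the tumors H2-K1 was at 635, 602 and 971 CPM and H2-D1 at 503, 479 and 686 CPM, so tumor 3 lay above all N-LKO livers and the other tumors below them. B2m, the light chain shared by the class I molecules, was at 1448 to 1578 CPM in the WT livers and 1368 to 1775 CPM in the N-LKO livers on HFD, and at 1089 to 1353, 979.9 to 1254 and 1040.4 to 1129 CPM in WT livers, N-LKO livers and tumors on WD. Its log2 fold changes were 0.09 on HFD, -0.06 for N-LKO against WT livers on WD, -0.12 for tumors against N-LKO livers and -0.18 for tumors against WT livers, with adjusted p of 0.495 to 0.896. For tumors against WT livers its approximate 95% interval ran from -0.50 to 0.15. The counts of H2-K1 were not whole in any library and those of H2-D1 in all but 1 (tolerance 0.01), which shows that reads were shared out among like sequences, so the split between these heavy chains is uncertain.

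**Figure D4:**
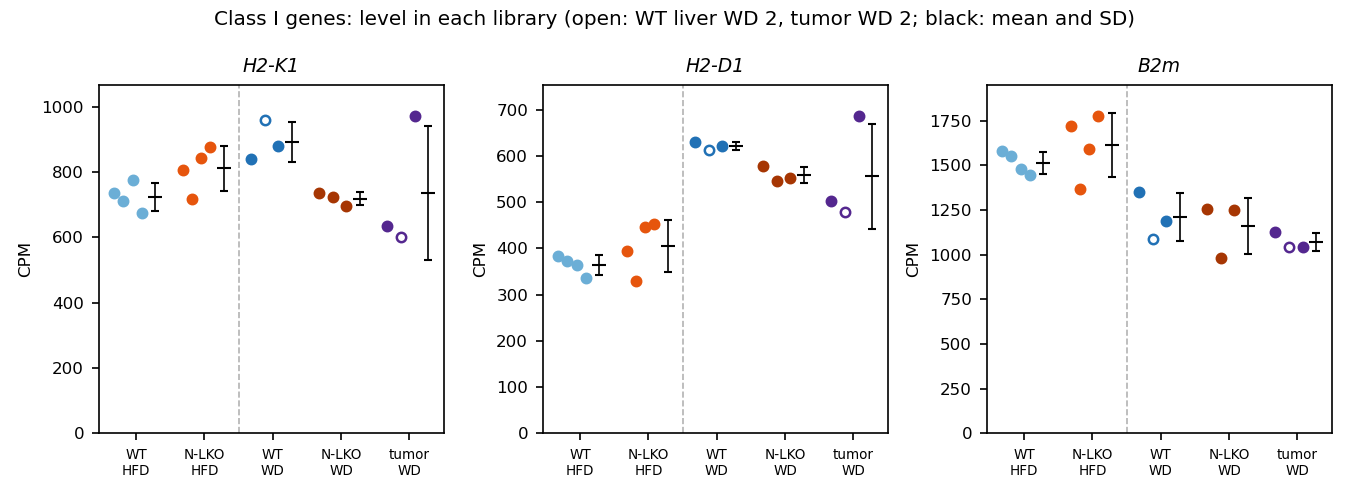
Level of H2-K1, H2-D1 and B2m in CPM (vertical axis from 0) in each library, by group, with black bars for mean and SD (n = 4 per group on HFD, n = 3 on WD). On WD the N-LKO livers lie at 696 to 735 CPM for H2-K1, below the WT livers at 839 to 957 CPM.

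The genotype effects on the 2 diets were set against each other in an interaction test over the 14 livers. None of the 10 genes passed, where 1.62% of 15850 genes did. H2-K1 came nearest, with a genotype effect on WD lower than that on HFD by a log2 value of -0.45 (SE 0.14, 95% interval -0.72 to -0.19, adjusted p = 0.0905), and DESeq2 called it (adjusted p = 0.00473). Over the 14 fits without 1 library the difference for H2-K1 was -0.51 to -0.41. For the 7 class II genes the difference between diets was -0.17 to 0.31, and the interval for H2-Aa, -0.87 to 1.08, holds differences in either direction.

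**Figure D5:**
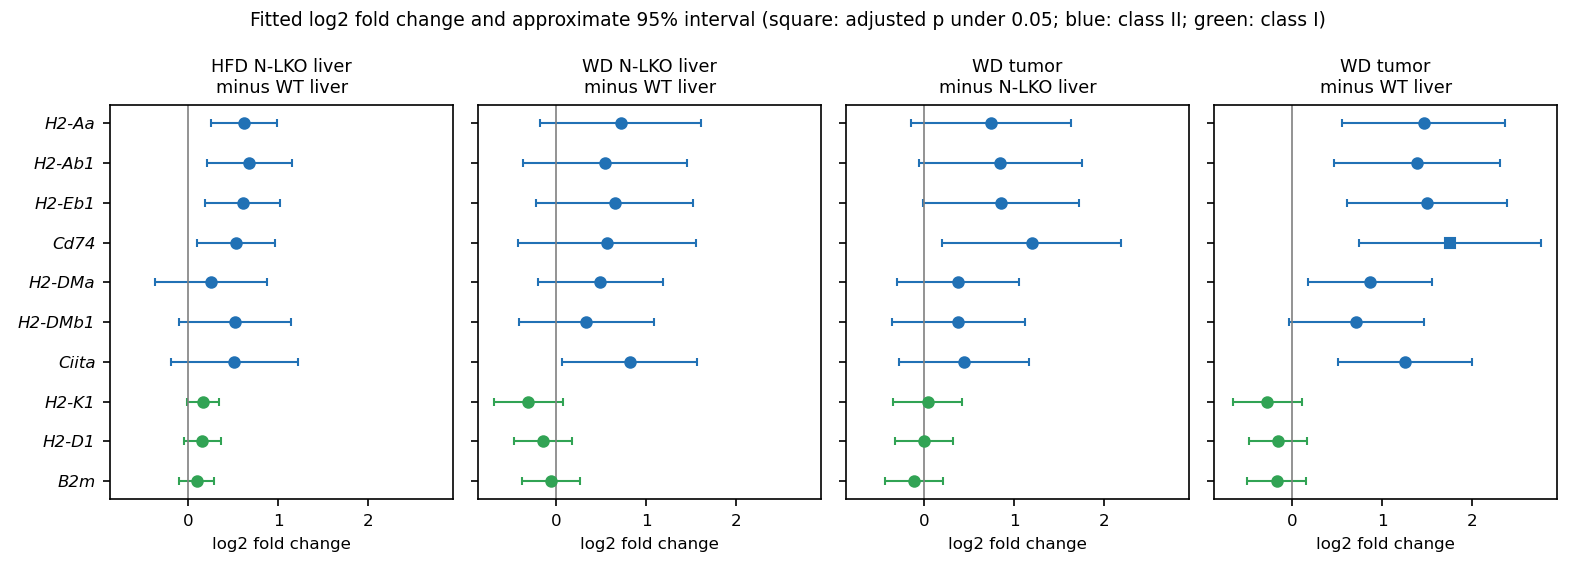
Log2 fold change with its approximate 95% interval (horizontal axis) for the 10 genes in the 4 comparisons within a diet, class II in blue and class I in green, with a square where the adjusted p was under 0.05. The class II values lie right of 0 in all 4 panels, and the only square is Cd74 for tumors against WT livers at 1.76.

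Of 53 other genes of the presentation pathways, 45 could be tested on HFD, where 2 rose and none fell, a share of 4.44% beside 4.84% of all genes. Psme2, a subunit of the PA28 activator of the immunoproteasome, was at 14.6, 12.7, 13.7 and 13.2 CPM in the WT livers and 19.3, 19.2, 21.3 and 18.4 CPM in the N-LKO livers, with no overlap (log2 fold change 0.53, SE 0.10, adjusted p = 0.0156). It passed in all 8 fits without 1 library, but not with the offset for length and GC content (0.37, adjusted p = 0.0746). H2-Q1, a non-classical class I gene, was at 17.8, 7.55, 6.67 and 11 CPM in the WT livers and 27.3, 16.8, 26.8 and 20.2 CPM in the N-LKO livers (log2 fold change 1.08, SE 0.27, adjusted p = 0.0443), and passed in 2 of the 8 fits and not with that offset (adjusted p = 0.0704). The H2-Q genes are close copies of each other, so the share of reads given to each is uncertain. Psme2 had a log2 fold change of -0.02 for N-LKO against WT livers on WD.

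Other groups of the pathway on HFD had no gene past the threshold. These were the partners of Ciita on the promoter (0 of 7), the endosomal proteases and reductase (0 of 5), the class I folding factors (0 of 5), the class I regulator Nlrc5, the interferon gamma axis (0 of 6) and costimulation (0 of 2). The other class II genes H2-DMb2, H2-Oa, H2-Ob and H2-Eb2 were too low on HFD to be tested.

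On WD, 52 of these genes were tested. None was called for N-LKO against WT livers or for tumors against N-LKO livers, where 3 (5.77%) and 11 (21.2%) had an unadjusted p under 0.05, beside 12.4% and 18.3% of all genes. Against WT livers, 7 rose and 1 fell in the tumors, a share of 15.4% beside 14.9% of all genes. Without WT liver 2 and tumor 2, 1 of these 8 still passed, Tapbpl (0.93, adjusted p = 0.0472), and in the fit of tumors and WT livers alone none of the 7 that were tested did. Mr1, the class I-like molecule that shows vitamin B metabolites to MAIT cells, was at 8.58, 4.14 and 8.11 CPM in WT livers, 12.5, 8.40 and 8.62 CPM in N-LKO livers and 15.7, 17.1 and 15.8 CPM in tumors (log2 fold change 1.22, SE 0.26, adjusted p = 0.0185). The tumors lay above all livers and close to each other, and Mr1 passed in all 9 fits without 1 library. It did not pass without both WT liver 2 and tumor 2 (0.91, adjusted p = 0.0732) or in the fit of tumors and WT livers alone (adjusted p = 0.0517).

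The other 6 genes that rose passed in fewer of these fits. Ifngr1, a chain of the interferon gamma receptor, was at 45.2, 59.4 and 35.5 CPM in tumors and 24.1 to 30 CPM in WT livers (log2 fold change 0.75, adjusted p = 0.0298, passed in 4 of 9 fits). Psmb8, a catalytic immunoproteasome subunit, was at 22.8, 83.2 and 69.9 CPM in tumors and 19.8 to 24 CPM in all livers (1.40, adjusted p = 0.0322, 1 of 9). Tumor 1 was thus at the level of the livers for Psmb8. Tapbpl (TAPBPR), a peptide editor of class I, had a log2 fold change of 0.75 (adjusted p = 0.0349, 2 of 9), Nfya, a Y box binding subunit of NF-Y, one of 0.51 (adjusted p = 0.0434, 2 of 9) and Ctss, the protease that trims Cd74, one of 0.81 (adjusted p = 0.0492, 1 of 9).

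H2-Oa, a chain of the H2-O dimer that restrains H2-M, passed at adjusted p = 0.0214 (6 of 9 fits), but was at or under 3 counts in each WT liver and at 0.452, 0.756 and 0.417 CPM in the tumors. Against a floor of 3 counts in a library, 0.206 CPM, the mean of the tumors was at least 2.63-fold higher. The mean of the N-LKO livers was at least 3.07-fold higher. The gene that fell was H2-Q10, a class I gene secreted by the liver, at 1387, 1179 and 1275 CPM in WT livers, 1084, 968 and 1099.7 CPM in N-LKO livers and 848, 621 and 907 CPM in tumors (log2 fold change -0.69, SE 0.18, adjusted p = 0.0321, 3 of 9 fits). Without both libraries, H2-Q10 was at -0.60 (adjusted p = 0.0739), Psmb8 at 1.06 (0.196), Ifngr1 at 0.44 (0.177), Ctss at 0.45 (0.158), Nfya at 0.37 (0.189) and H2-Oa at adjusted p = 0.120. The 3 groups did not overlap for H2-Q10. Nlrc5, the class I counterpart of Ciita, had a log2 fold change of -0.17 (adjusted p = 0.469).

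The genes whose log2 levels followed the mean profile of H2-Aa, H2-Ab1, H2-Eb1 and Cd74 most closely were found by the root mean square difference between centred profiles. Over the 8 HFD libraries these were Tagln2 (0.115), Gyg (0.179), Vim (0.188), Bgn (0.190) and Col4a1 (0.191), of 8723 genes at a mean of 5 CPM or more, where the members themselves were at 0.0703 to 0.131. Over the 9 WD libraries they were Cxcl14 (0.224), Ncoa7 (0.247), Hpgds (0.273), Otulinl (0.278) and Lpcat2 (0.286), of 9995 genes, and the members at 0.0564 to 0.144. The lists had no gene in common. For the profile of H2-K1, H2-D1 and B2m they were Cd82, Hsbp1, Cd81, Itm2b and Arf6 on HFD (0.0465 to 0.0516), and Nicn1, Gart, H2-T23, Clec16a and Usp7 on WD (0.0438 to 0.0646). These members themselves were at 0.0437 to 0.0506 on HFD. On WD H2-D1 was at 0.0446, but H2-K1 at 0.120 and B2m at 0.151 were farther than every gene named there. The mean profile on WD is thus not one that H2-K1 and B2m followed closely. H2-T23, which encodes Qa-1, was the only gene of the presentation pathways among the 20 nearest genes.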

How the data were processed

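Total RNA of mouse livers and tumors was sequenced. The authors deposited estimated counts per gene (expected counts, shared out by expectation maximisation in Partek), 1 table per diet. The submitters' processing notes name STAR and Partek, and the strand was not given in the sources used here. After rounding of the deposited estimated counts, edgeR 4.0.16 (R 4.3.3) was run by quasi-likelihood with TMM scaling, filterByExpr and Benjamini-Hochberg adjustment over all genes tested (13460 on HFD, 17829 on WD), threshold 0.05. HFD libraries were fitted alone and the 3 WD groups together, and the diet interaction over 14 livers. SE is the log2 fold change over the square root of F, and intervals are 1.96 SE to either side. With so few libraries all intervals called 95% are approximate and too narrow. For Ciita in N-LKO against WT livers on WD, the interval of 0.07 to 1.57 leaves out 0, while the quasi-likelihood F test gave an unadjusted p of 0.0578. Scripts were tested on simulated data. The labels call the replicates biological, and within-group pairs differed by a chi-square per degree of freedom of 7.99 to 103. Floors cover counting error only.

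Named were the 10 members, Nus1, called pathway and marker genes, and the 5 nearest patterns. The members, the pathway list and the marker lists (leukocyte, B cell, T cell, dendritic cell, Kupffer cell, recruited macrophage, sinusoidal endothelial cell, cholangiocyte, stellate cell, hepatocyte) were chosen with earlier results of these data known. Alternatives were DESeq2 1.42.0 size factors and Wald test, no filter, an offset for length and GC content, a replicate block, fits of the compared groups alone and fits without each library.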

Additional observations from a re-analysis of the deposited data

How the results depend on the processing

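Without 1 library, the genes called were 179 to 597 on HFD, 0 to 1 for N-LKO against WT livers on WD, 3 to 2193 for tumors against N-LKO livers (2193 without tumor 1), 569 to 3819 for tumors against WT livers and 22 to 330 for the diet interaction. Members called were then 0 to 2 on HFD (2 without WT liver 1), 0 to 4 for tumors against WT livers (4 without tumor 1) and 0 elsewhere. The DESeq2 Wald test called 1000 genes and 1 member on HFD, 100 genes for N-LKO against WT livers on WD, 1021 for tumors against N-LKO livers, 5 members for tumors against WT livers, and 981 genes and 1 member for the interaction. With an offset for length and GC content, 272 genes were called on HFD, 72 for the interaction, and 3 members for tumors against WT livers. For tumors against WT livers, the share of all genes called in these 2 fits is not given. The counts of 5 and 3 members are therefore not read as a result about the members. In the main fit 14.9% of all genes were called. Fits of only the 2 groups compared called 6, 29 and 705 genes for N-LKO against WT livers, tumors against N-LKO livers and tumors against WT livers on WD, and 0 members in the last. Without a filter, 0 members were called for tumors against WT livers. Without both WT liver 2 and tumor 2, 3 genes were called for N-LKO against WT livers and 417 genes and 0 members for tumors against WT livers. Cd74 for tumors against WT livers was at adjusted p = 0.0540 without a filter, 0.110 with only 2 groups and 0.105 with the block.

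Replicate numbers gave no sign of pairing the samples. Correlations of same-numbered libraries were -0.0759 to 0.107 on HFD and -0.124 to 0.101 on WD, and those of unlike number reached 0.14 and 0.148. The names of the libraries carry other numbers, and pairing by those was not tested. With the replicate number as a block, 36 genes were called for tumors against N-LKO livers, 0 for the interaction and 0 members for tumors against WT livers. The interaction of H2-Ab1 was then 0.080.

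Some signs turned, up to H2-DMb1 for tumors against WT livers, at 0.71 with all libraries. With the length and GC offset, B2m on HFD was at -0.062 and the interactions of H2-Ab1 and H2-DMb1 at 0.15 and 0.056. Without both libraries, H2-DMb1 was at -0.0040 for N-LKO against WT livers and -0.054 for tumors against WT livers, and H2-DMa, H2-DMb1 and H2-D1 for tumors against N-LKO livers were at -0.17, -0.050 and 0.089. Without 1 library, N-LKO against WT livers on WD gave -0.13 to 0.046 for B2m and -0.0049 to 0.57 for H2-DMb1. Tumors against N-LKO livers gave -0.17 to 0.60 for H2-DMa, -0.057 to 0.57 for H2-DMb1, -0.22 to 0.16 for H2-K1 and -0.19 to 0.082 for H2-D1. The interaction gave -0.32 to 0.47 for H2-Aa, -0.54 to 0.26 for H2-Ab1, -0.36 to 0.39 for H2-Eb1, -0.36 to 0.40 for Cd74, -0.52 to 0.084 for H2-DMb1 and -0.080 to 0.67 for Ciita. The cause of these changes was not tested beyond the libraries and genes each fit left out. Depth limits Ciita, H2-DMa and H2-DMb1 on HFD, where Ciita had 17 counts at most.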
